A study of Mus musculus with 45 samples.

Results

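p53, the transcription factor encoded by Trp53, and 34 genes that control it or that it is known to activate were followed through mouse pre-implantation development and in naive embryonic stem cells, with and without the transcription factor GABPA. The 35 genes were chosen by symbol from knowledge of the pathway, with no measured value in the rule. Earlier results of these data were known when they were chosen. Each symbol matched 1 of the 55385 genes in every expression table. By role they are p53 and its regulators (3 genes), growth arrest (7), death (13), repair (5), metabolism and stress (4) and others (3). All embryos and cells carried a degron tag on both alleles of Gabpa (genotype Gabpa-dTAG/dTAG), in the DMSO controls as well, and no untagged embryos enter the comparisons. dTAG13 binds the tag and recruits a ubiquitin ligase, so that GABPA protein is lost while its messenger RNA is still made.

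Late two-cell embryos received 1 μM dTAG13 from the zygote on (3 libraries) or DMSO (3 libraries), and morulae received 1 μM dTAG13 from the four-cell stage on (2 libraries) or DMSO (2 libraries). The E4.5 ICM is the mixture of epiblast (EPI) and primitive endoderm (PrE) left after the trophectoderm (TE) of a blastocyst is removed by immunosurgery, and it received 1 μM dTAG13 from the early blastocyst on (2 libraries) or DMSO (2 libraries). 2iES cells are mouse ES cells picked as single clones and grown with serum, LIF and 2 kinase inhibitors, with 0.5 μM dTAG13 for 24 h (2 libraries) or DMSO (2 libraries). Embryos came from in vitro fertilization of oocytes of superovulated females aged 7 to 8 weeks. Among the embryos the dose was the same, but the window of treatment changed with the stage. Between embryos and 2iES cells the dose changed as well. These cannot be told apart from the stage.

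p53 is made at all times in most cells and is held low by MDM2, a ubiquitin ligase that marks it for degradation, and by the related inhibitor MDM4. Stress that stabilises p53 lets it bind pairs of short half-sites near its target genes, and MDM2 is itself a target, which closes a feedback loop. Targets such as Cdkn1a stop the cell cycle, targets such as Bbc3 and Pmaip1 start apoptosis, and others repair DNA or limit oxidative damage.

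Expected counts, the read counts that RSEM assigns to a gene, summed to between 9457933 and 27660132 per library. Replicates differed by a biological coefficient of variation of 0.284 at the late two-cell stage, 0.213 in morulae, 0.0237 in the E4.5 ICM and 0.159 in 2iES cells, so that equally large changes pass the test more readily in the E4.5 ICM. The study calls the libraries of a group biological replicates, but the labels do not say which cultures or animals they came from. P-values measure only the spread between these libraries. The median squared deviation of replicate counts was 1.62 (DMSO) and 1.69 (dTAG13) times that of counting noise in the E4.5 ICM. In the other groups it was 2.86 to 16.1 times. The small p-values of the E4.5 ICM rest on this low spread, and whether it holds differences between embryos is not known. Gabpa messenger RNA, which is no check of the degraded protein, was higher with dTAG13 at each stage, from 87.3 to 116 TPM with DMSO and 141 to 162 with dTAG13 in late two-cell embryos to 5.76 and 7.37 against 11.1 and 11.3 in 2iES cells. TPM is a share of transcripts corrected for their length, which lets genes be compared by level.

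Matches to the p53 response element near the target genes are shown first, since this is the sequence through which p53 is known to act. A p53 response element is a pair of half-sites of 10 bases, each with the core C, A or T, A or T, G, and a search of the GRCm38 genome within 5 kb of each annotated gene start allowed no gap between the half-sites and up to 2 mismatches outside the cores. Such a site was found in 10 of the 35 members (28.6%) and in 1364 of 21938 protein-coding genes (6.22%). The search was set after the data were seen, a match is a description of the letters, and the members without one have no such letters in this window. Capitals mark the cores in the sites of growth arrest, death and other targets below, each read on the strand of its gene.
Cdkn1a (chr17:29090928-29090947, first base at position -48 from the start): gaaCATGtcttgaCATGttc
Ccng1 (chr11:40754936-40754955, position 356, inside the gene): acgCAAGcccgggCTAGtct
Psrc1 (chr3:108384656-108384675, position 817, inside the gene): gggCATGttgaggCATGccc
Plk2 (chr13:110392882-110392901, position -2164): caaCATGcccgggCTTGcat
Perp (chr10:18848017-18848036, position 2997, inside the gene): gggCAAGctctggCATGtca
Pidd1 (chr7:141443303-141443322, position 703, inside the gene): tggCAAGctgggaCATGtct
Fas (chr19:34292364-34292383, position 1698, inside the gene): gggCATGtacaaaCATGtca
Zmat3 (chr3:32364331-32364350, position 1664, inside the gene): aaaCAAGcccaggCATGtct
The site of Zmat3, a zinc finger RNA-binding protein, had 0 mismatches, those of Cdkn1a, Ccng1 and Psrc1 had 1, and the others shown had 2. Tigar and Pmaip1 also held a match, and Perp, Plk2 and Zmat3 each held a second.

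GABPA binds ETS sites with a GGAA core, and promoters were searched for CCGGAAG and, after the data were seen, for the shorter CGGAAG that it contains, on both strands. RefSeq promoter windows, from 250 bases before to 50 after a start, were at hand for 27 of the 35 members. CCGGAAG was found in 3 of the 27 (11.1%), Mdm2, Mdm4 and Pidd1, and in 9.93% of 27025 genes. CGGAAG was found in 8 of the 27 (29.6%), those 3 with Trp53, Aen, Fbxw7, Sesn2 and Tigar, and in 18.8% of all genes. The stretch just before the start is printed for Trp53 and for its feedback inhibitor Mdm2, whose values are given at every stage, with CGGAAG on either strand in capitals (RefSeq, GRCm38.p6).
Trp53 (chr11:69580239-69580358, plus strand): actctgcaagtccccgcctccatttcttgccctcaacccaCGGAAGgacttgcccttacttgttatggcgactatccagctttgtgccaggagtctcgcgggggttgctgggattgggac
Mdm2 (chr10:117710759-117710878, minus strand): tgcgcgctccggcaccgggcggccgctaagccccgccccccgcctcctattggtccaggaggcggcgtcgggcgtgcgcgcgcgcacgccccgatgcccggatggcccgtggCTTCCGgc
GABPA binding at these promoters was measured by the study in other libraries, which were not analysed here.

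With DMSO, Trp53 rose along development. It stood at 20.9, 25.65 and 23.1 TPM in late two-cell embryos, 24.7 and 34.8 in morulae, 96.0 and 99.1 in the E4.5 ICM and 77.4 and 81.6 in 2iES cells. In counts it was higher in morulae than in late two-cell embryos (log2 fold change 0.69 ± 0.17 SE, adjusted p = 0.00255) and higher again in the E4.5 ICM (1.34 ± 0.18, adjusted p = 9.79e-05), while 2iES cells and the E4.5 ICM did not pass (0.31 ± 0.18, adjusted p = 0.19). These and all adjusted p-values below are from edgeR's quasi-likelihood test with the Benjamini-Hochberg adjustment over all genes tested. The median of all genes was shifted by -0.28 between morulae and late two-cell embryos in this comparison and by 0 in the other comparisons of controls.

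Mdm2, the feedback inhibitor, lay between 31.8 and 58.0 TPM in all 9 control libraries. It was lower in morulae than in late two-cell embryos (-0.40 ± 0.14, adjusted p = 0.0258) and higher in 2iES cells than in the E4.5 ICM (0.57 ± 0.16, adjusted p = 0.0107). Mdm4 stood at 3055, 2945 and 2736 TPM in late two-cell embryos with DMSO and at 32.4 and 48.0 in morulae, a log2 fold change of -5.11 ± 0.17 (adjusted p = 6.4e-10), and the groups were far from overlapping. RSEM gave Mdm4 a mean transcript length of 1138 bases in the first late two-cell DMSO library and 2205 in the first E4.5 ICM one, and 13.8% of its 31-base words also occur in other genes, the pseudogene Mdm4-ps among them, so that reads could be split between these genes. Larger shares of such words were found for Ddb2 (20.6%), Gadd45a (16.98%) and Rrm2b (14.3%). Cdkn1a, which encodes the cyclin-dependent kinase inhibitor p21, moved up and down. It stood at 89.0 to 140 TPM in late two-cell embryos, 213 and 244 in morulae, 36.7 and 38.8 in the E4.5 ICM and 116 and 124 in 2iES cells, and each step passed the test (log2 fold changes 1.25 ± 0.18, -2.82 ± 0.22 and 2.16 ± 0.21).

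**Figure D1:**
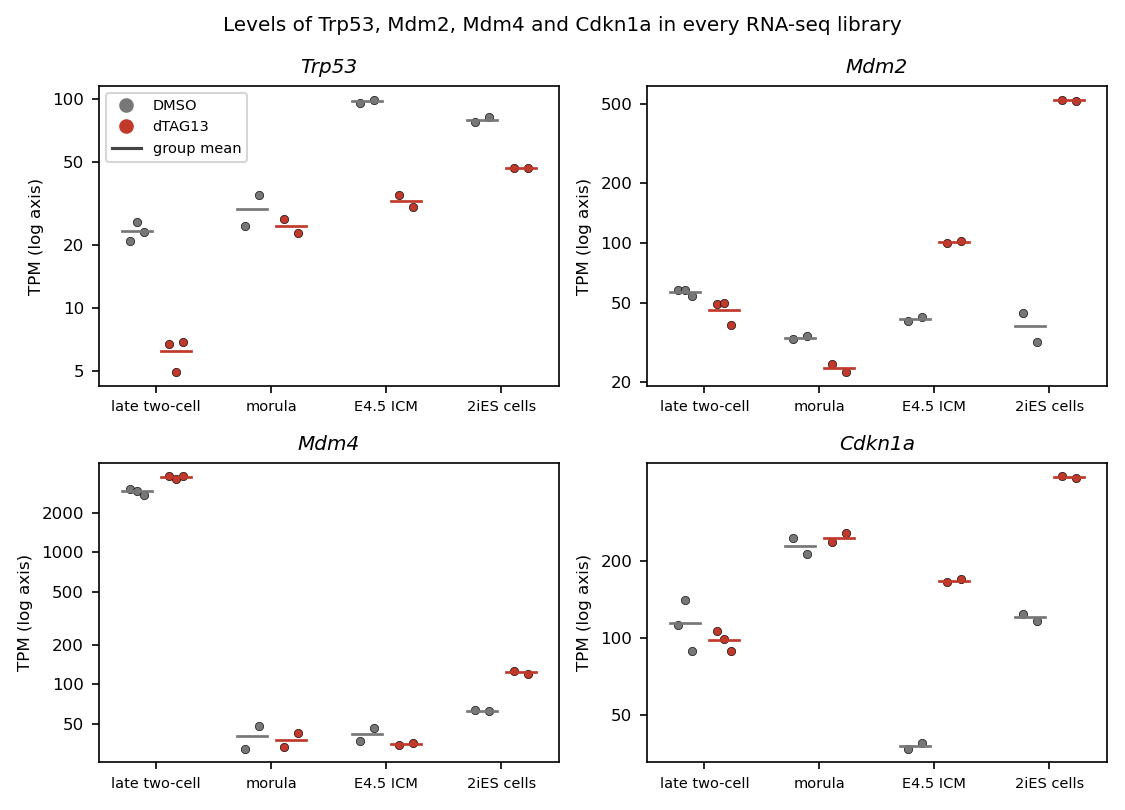
TPM (log axis) of Trp53, Mdm2, Mdm4 and Cdkn1a in each of the 18 libraries by stage, with points for libraries and lines for group means. Trp53 lies lower with dTAG13 in late two-cell embryos, the E4.5 ICM and 2iES cells, while Mdm2 and Cdkn1a lie higher in the E4.5 ICM and 2iES cells.

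Over all members, 23 were higher and 8 lower in morulae than in late two-cell embryos with DMSO, where 31.2% of all genes tested were higher and 38.0% lower. Of the 13 death genes, 10 were higher and 1, Ei24, was lower. Perp, a membrane protein of desmosomes and apoptosis, was at 0, 10 and 7 counts in late two-cell embryos and at 2114 and 2313 in morulae. Phlda3, an inhibitor of AKT signalling, was at 0.12, 0 and 0 TPM and at 28.2 and 31.4. Among the members that went the other way were Rrm2b (a ribonucleotide reductase subunit), Ddb2 (a sensor of ultraviolet damage) and Gadd45a (a growth arrest protein), which were lower in morulae by -3.48 ± 0.21, -2.54 ± 0.23 and -2.18 ± 0.27. From morulae to the E4.5 ICM, 8 members were higher and 17 lower (24.6% and 21.0% of all genes), with Perp at 92.9 and 93.7 TPM in morulae and 3.96 and 4.04 in the E4.5 ICM. From the E4.5 ICM to 2iES cells, 14 were higher and 2 lower (21.9% and 20.7% of all genes). The 8 became fewer with upper-quartile scaling or without either E4.5 ICM library, and the 2 became more with library totals.

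In late two-cell embryos dTAG13 lowered Trp53 and left nearly all of its targets without a change that passed the test. Trp53 stood at 20.9, 25.65 and 23.1 TPM with DMSO and 6.73, 4.91 and 6.89 with dTAG13, and the groups did not overlap. The log2 fold change was -1.99 ± 0.19 (adjusted p = 8.78e-05). Of 32 members tested, 3 fell and 1 rose, against 7.24% and 1.32% of all 17421 genes. With the libraries of both treatments compared in TPM, 4 lay wholly below and 3 wholly above their controls (all genes 12.8% and 14.5%). The members had a median log2 fold change of -0.06 and all genes of 0.02. Fas, Perp and Phlda3 had too few counts to be tested.

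The 4 oocyte markers, messenger RNA that the egg supplies, summed to 1330 to 1344 TPM with DMSO and 1689 to 1925 with dTAG13, and their part in the changes was not tested. With a change of 2-fold or more and a mean FPKM of 1 or more also required, 2 members fell, Trp53 and Polk, and 0 rose (all genes 3.63% and 0.476%).

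The other members that passed at this stage were a mixed group. Mdm4 stood at 3055, 2945 and 2736 TPM with DMSO and 3796, 3599 and 3773 with dTAG13 (0.29 ± 0.063, adjusted p = 0.0171). Aen, a nuclease of apoptosis, stood at 25.2, 33.4 and 32.4 TPM with DMSO and 23.1, 21.4 and 23.1 with dTAG13 (-0.56 ± 0.14, adjusted p = 0.0333). Polk, a DNA polymerase that copies past damaged bases, stood at 0.53, 1.16 and 1.40 TPM with DMSO and 0.24, 0.32 and 0.33 with dTAG13 (-2.06 ± 0.56, adjusted p = 0.0486), on 8 to 102 counts per library. None of the 3 groups of values overlapped between treatments. Without DMSO replicate 2 or 3 or without any dTAG13 library, only 1 member, Trp53, stayed lower, since Aen and Polk no longer passed, and Mdm4 no longer passed without DMSO replicate 3, dTAG13 replicate 2 or dTAG13 replicate 3.

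Mdm2 and Cdkn1a did not pass at the late two-cell stage. Mdm2 stood at 58.0, 57.6 and 54.3 TPM with DMSO and 49.0, 49.8 and 38.5 with dTAG13, which did not overlap (-0.41 ± 0.12, adjusted p = 0.058), and with DESeq2 its adjusted p was 0.0289. Cdkn1a stood at 112, 140 and 89.0 TPM with DMSO and 106, 99.0 and 89.0 with dTAG13, which overlapped (-0.29 ± 0.17, adjusted p = 0.377). No gene of the growth arrest class passed, and its median log2 fold change was -0.24.

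In morulae no member passed with edgeR or with DESeq2. The fit of this stage recovered 40.8% of 2-fold changes put into simulated data, so a lack of calls is no sign of a lack of change. Of 34 members tested, 5 (14.7%) had an unadjusted p under 0.05, as did 13.6% of all 13667 genes. At the adjusted threshold, 0.205% of all genes fell and 0.161% rose. Trp53 stood at 24.7 and 34.8 TPM with DMSO and 26.5 and 22.9 with dTAG13, which overlapped (-0.30 ± 0.22, adjusted p = 0.579). Mdm2 stood at 32.7 and 34.0 TPM with DMSO and 24.6 and 22.4 with dTAG13, which did not overlap, and had the lowest p of the members (-0.51 ± 0.19, adjusted p = 0.281). Cdkn1a stood at 244 and 213 TPM with DMSO and 236 and 255.6 with dTAG13. Mdm4 stood at 32.4 and 48.0 TPM against 33.3 and 42.8 with dTAG13, and both genes overlapped. In TPM, 11 members lay wholly below and 3 wholly above their controls (all genes 23.5% and 20.1%). The members had a median log2 fold change of -0.16 and all genes of -0.02. The fall of Trp53 was larger in late two-cell embryos than in morulae (difference of log2 effects -1.76 ± 0.31, adjusted p = 0.00651). This and later differences are from 1 fit of both stages with a shared spread, although the stages differ in spread. By edgeR, Trp53 was the 1 member whose effect differed between these stages, against 3.16% of all genes. More members did so with DESeq2, with library totals or without the low-count filter.

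**Figure D2:**
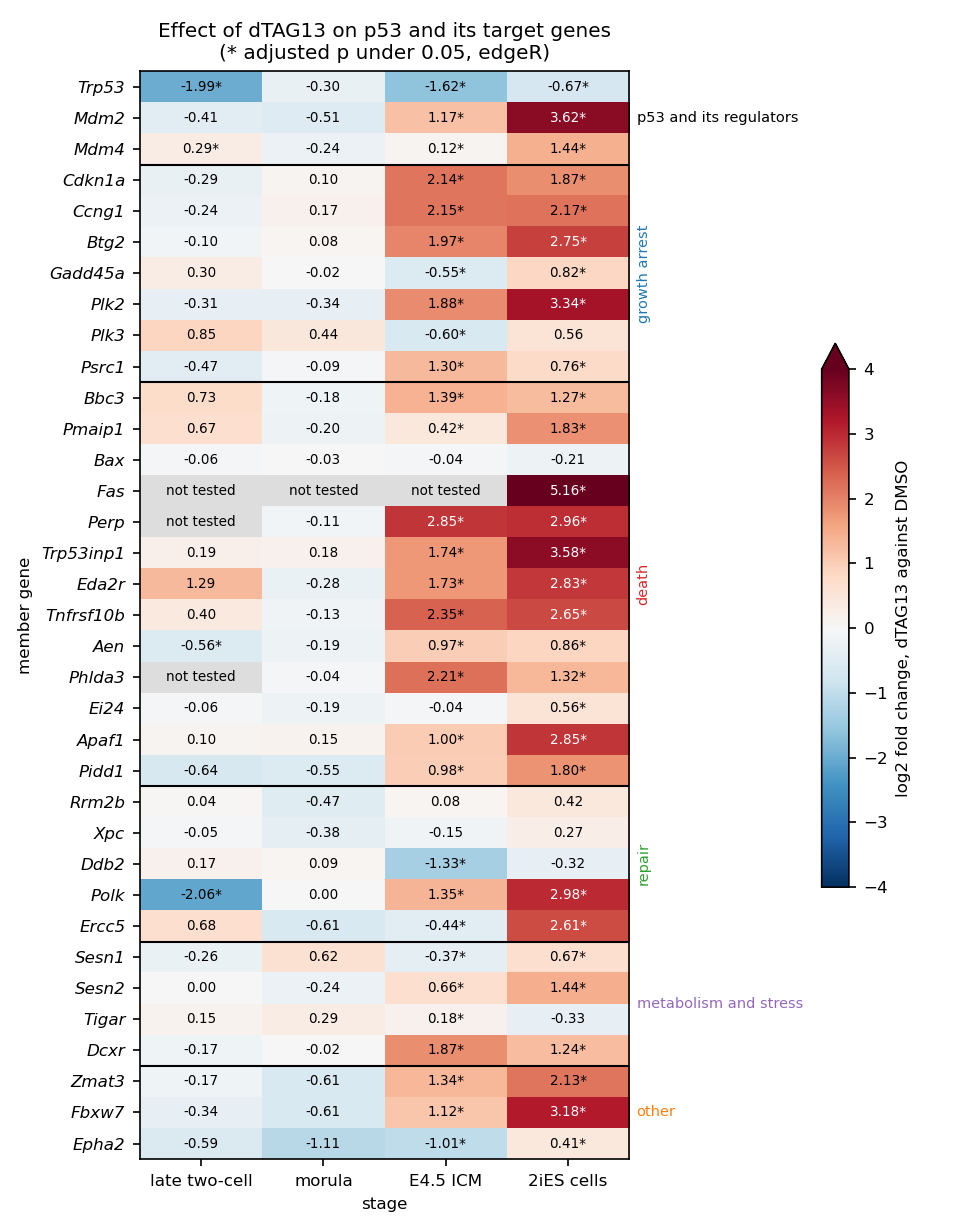
Log2 fold changes of dTAG13 against DMSO for the 35 genes (rows, grouped by role) at the 4 stages (columns), from edgeR, with an asterisk for an adjusted p under 0.05 and grey for genes not tested. Blue marks lower and red higher values, the color scale ends at 4, and red fills most of the columns for the E4.5 ICM and 2iES cells.

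In the E4.5 ICM and in 2iES cells Trp53 messenger RNA fell while most of its targets rose. Of 34 members tested in the E4.5 ICM, 23 rose and 7 fell, against 38.4% and 38.5% of all 15840 genes. Of 35 tested in 2iES cells, 28 rose and 1, Trp53, fell, against 26.5% and 28.1% of all 15511 genes. With the fold and FPKM requirements added, 17 members rose and 3 fell in the E4.5 ICM (all genes 12.1% and 13.2%) and 22 rose and 0 fell in 2iES cells (12.4% and 15.6%). Without that requirement, 1 member fell in 2iES cells by edgeR and 1 by DESeq2, and 2 had an unadjusted p under 0.05 and a lower value. The median log2 fold change of the members was 0.99 in the E4.5 ICM and 1.44 in 2iES cells, beside 0.01 and 0.03 for all genes. In TPM, 22 members lay wholly above and 9 wholly below their controls in the E4.5 ICM (all genes 44.8% and 40%), and 31 and 3 did so in 2iES cells (37.8% and 40.1%). These are bulk samples, in which fewer cells of a type and less RNA per cell cannot be told apart.

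Markers of the cell types moved with dTAG13 in the E4.5 ICM too, which the study collected at a time chosen to come before a difference in the number of EPI cells. The 8 TE markers summed to 66.8 and 72.8 TPM with DMSO and 778 and 779 with dTAG13, and all 8 passed as higher, among them Cdx2 (0.29 and 0.60 TPM against 1.78 and 2.57), Gata3 and Krt18. The 10 EPI markers summed to 589 and 606 TPM with DMSO and 398 and 398 with dTAG13, and all 10 passed as lower. The 8 PrE markers summed to 437 and 452 TPM with DMSO and 654 and 660 with dTAG13, and they went both ways, with 5 that passed as higher (Gata4, Gata6, Pdgfra, Lama1 and Col4a1), 2 as lower (Sox17 and Sox7) and Foxa2 at 0.09 ± 0.080 (adjusted p = 0.318). The part of these cell types in the changes of the p53 genes was not tested. In 2iES cells the TE markers summed to 108 and 139 TPM with DMSO and 127 and 133 with dTAG13, which overlapped. Of 6 TE markers tested there, 1 passed as higher and 1 as lower, and Elf5 was at or under 0.01 TPM in every library. The PrE markers summed to 1.40 and 1.01 TPM with DMSO and 2.55 and 1.98 with dTAG13 in 2iES cells. These did not overlap, and 2 of 4 tested passed as higher. The EPI markers summed to 425 and 426 TPM with DMSO and 286 and 274 with dTAG13 in 2iES cells, where 4 of the 10 passed as lower (Pou5f1, Nanog, Klf2 and Prdm14) and 1 as higher (Klf4).

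**Figure D3:**
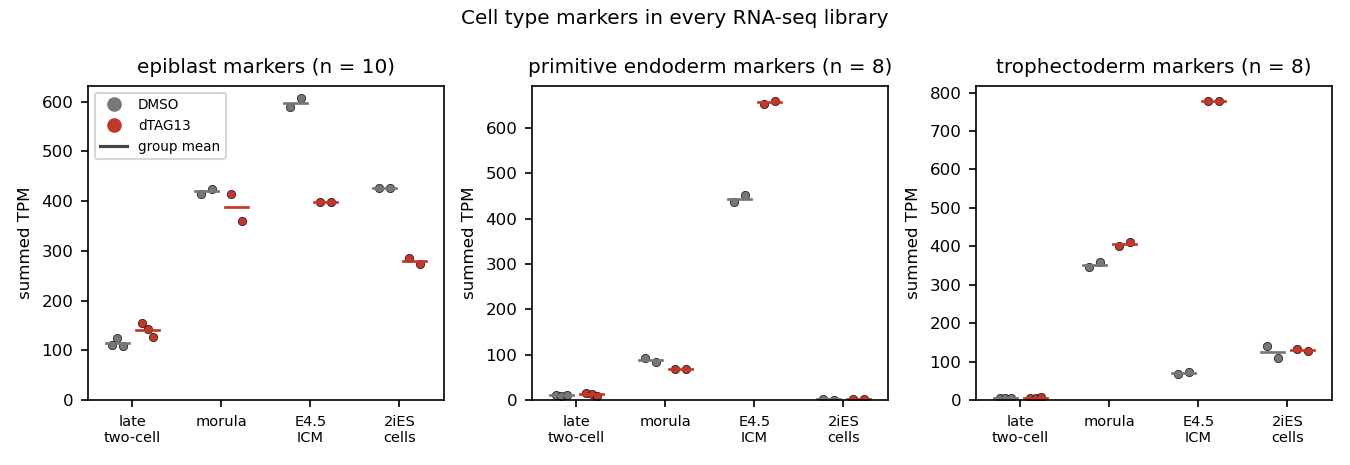
Summed TPM of 10 EPI, 8 PrE and 8 TE markers in each library by stage, with points for libraries and lines for group means. In the E4.5 ICM the TE sum is 66.8 and 72.8 with DMSO and 778 and 779 with dTAG13, while in 2iES cells the TE sums of the treatments overlap.

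p53 and its regulators moved apart. Trp53 stood at 96.0 and 99.1 TPM with DMSO and 34.6 and 30.45 with dTAG13 in the E4.5 ICM (-1.62 ± 0.043, adjusted p = 9.48e-29), and at 77.4 and 81.6 against 46.6 and 46.8 in 2iES cells (-0.67 ± 0.11, adjusted p = 0.00211). The fall was larger in the E4.5 ICM (difference -0.96 ± 0.12, adjusted p = 0.000249). Mdm2 stood at 40.6 and 42.4 TPM with DMSO and 99.7 and 102.5 with dTAG13 in the E4.5 ICM (1.17 ± 0.034, adjusted p = 1.13e-27). In 2iES cells it stood at 44.4 and 31.8 TPM with DMSO and 523 and 514 with dTAG13, a 12.3-fold rise (3.62 ± 0.15, adjusted p = 2.33e-05), which was larger than that in the E4.5 ICM (difference -2.47 ± 0.14 for the E4.5 ICM minus 2iES cells, adjusted p = 7.48e-06). In both, the libraries of the treatments lay far apart for both genes.

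Mdm4 rose in 2iES cells, from 63.5 and 62.3 TPM to 125.75 and 119.99 (1.44 ± 0.11, adjusted p = 0.000142). In the E4.5 ICM its direction depended on the unit. It stood at 37.3 and 46.9 TPM with DMSO and 34.4 and 35.5 with dTAG13, but in counts it was higher (0.12 ± 0.043, adjusted p = 0.0121), and its mean transcript length was 2205 and 1786 bases with DMSO and 2605 and 2605 with dTAG13. With DESeq2 its adjusted p was 0.15, it did not pass without DMSO replicate 2 or dTAG13 replicate 2, and limma on log2(TPM + 1) gave -0.25.

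Among the growth arrest genes, 5 of 7 rose and 2 fell in the E4.5 ICM (all genes 38.4% and 38.5%). In 2iES cells 6 rose and 0 fell (all genes 26.5% and 28.1%), and 0 fell by DESeq2 as well. Cdkn1a stood at 36.7 and 38.8 TPM with DMSO and 165 and 169 with dTAG13 in the E4.5 ICM (2.14 ± 0.043), and at 124 and 116 against 428 and 422 in 2iES cells (1.87 ± 0.095). Ccng1, the cyclin G1 gene that feeds back on p53, stood at 29.1 and 27.9 against 131 and 131 in the E4.5 ICM (2.15 ± 0.032), and at 32.8 and 35.2 against 149 and 142 in 2iES cells (2.17 ± 0.10). Btg2, an antiproliferative regulator of messenger RNA decay, stood at 5.52 and 4.96 against 20.4 and 21.9 in the E4.5 ICM (1.97 ± 0.074), and at 9.66 and 9.27 against 61.7 and 58.8 in 2iES cells (2.75 ± 0.11). None of these libraries overlapped between the treatments.

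Plk2, a polo-like kinase of the stress response, stood at 16.0 and 16.9 TPM against 62.65 and 64.1 in the E4.5 ICM (1.88 ± 0.042). In 2iES cells it stood at 8.07 and 7.06 against 76.7 and 72.4 (3.34 ± 0.12), a larger rise (difference -1.48 ± 0.11, adjusted p = 1.75e-05). Psrc1, a spindle protein under p53 control, stood at 30.3 and 29.3 against 75.3 and 72.1 in the E4.5 ICM (1.3 ± 0.048), and at 56.3 and 48.9 against 86.2 and 88.9 in 2iES cells (0.76 ± 0.11). The adjusted p of these 5 genes was at most 7.33e-24 in the E4.5 ICM and at most 0.00169 in 2iES cells. Gadd45a went opposite ways, from 12.9 and 13.4 TPM with DMSO to 9.42 and 8.57 with dTAG13 in the E4.5 ICM (-0.55 ± 0.12) and from 23.8 and 15.9 to 33.0 and 33.1 in 2iES cells (0.82 ± 0.19). An antisense gene covers 19.1% of its exonic sequence, and the unstranded libraries cannot tell the pair apart. Plk3 fell in the E4.5 ICM (-0.60 ± 0.13) and had a log2 fold change of 0.56 ± 0.27 in 2iES cells (adjusted p = 0.126).

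Of the death genes, 10 of 12 tested rose in the E4.5 ICM (all genes 38.4%) and 12 of 13 rose in 2iES cells (all genes 26.5%). None fell in either by edgeR or DESeq2, where 38.5% and 28.1% of all genes fell by edgeR. The BH3-only genes, whose proteins start mitochondrial apoptosis, rose from different levels. Bbc3 (PUMA) stood at 2.34 and 1.68 TPM against 5.45 and 5.10 in the E4.5 ICM (1.39 ± 0.18). In 2iES cells it stood at 0.64 and 0.51 against 1.12 and 1.38 (1.27 ± 0.34, adjusted p = 0.0173), with an adjusted p of 0.0526 by DESeq2 and 0.105 without dTAG13 replicate 2. Pmaip1 (NOXA) stood at 24.3 and 23.8 against 32.5 and 34.1 in the E4.5 ICM (0.42 ± 0.046), and at 24.5 and 21.9 against 80.6 and 77.8 in 2iES cells (1.83 ± 0.11). Bax, the pore-forming effector with the highest level of the death genes, did not pass in either. It stood at 335 and 368 TPM against 351 and 342 in the E4.5 ICM (-0.04 ± 0.032) and at 710 and 509 against 484 and 517 in 2iES cells (-0.21 ± 0.15), with overlap in both.

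The death receptors rose in 2iES cells and, where measured, in the E4.5 ICM. Fas stood at 0.38 and 1.00 TPM with DMSO and 18.7 and 20.6 with dTAG13 in 2iES cells, on 16 and 30 counts against 735 and 651 (5.16 ± 0.28, adjusted p = 4.52e-05). In the E4.5 ICM it had 1 and 1 counts against 5 and 2 and was not tested. Tnfrsf10b, the receptor of TRAIL, stood at 2.55 and 2.64 TPM against 14.0 and 13.7 in the E4.5 ICM (2.35 ± 0.088), and at 1.44 and 1.76 against 9.80 and 9.29 in 2iES cells (2.65 ± 0.19). Eda2r, a receptor of ectodysplasin, stood at 7.40 and 6.31 against 19.6 and 18.3 in the E4.5 ICM (1.73 ± 0.084), and at 3.99 and 7.69 against 54.1 and 44.7 in 2iES cells (2.83 ± 0.31). All 3 receptors lay well above their controls in both 2iES libraries with dTAG13.

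Perp stood at 3.96 and 4.04 TPM against 30.7 and 28.7 in the E4.5 ICM (2.85 ± 0.084), the largest rise of a member at that stage, and at 11.4 and 10.1 against 80.45 and 78.3 in 2iES cells (2.96 ± 0.12). Trp53inp1, a partner of p53 in autophagy and stress, stood at 5.54 and 5.46 against 17.6 and 17.99 in the E4.5 ICM (1.74 ± 0.054), and at 9.28 and 8.25 against 83.0 and 82.2 in 2iES cells (3.58 ± 0.18). Phlda3 stood at 35.2 and 38.15 against 173 and 173 in the E4.5 ICM (2.21 ± 0.043), and at 39.6 and 26.5 against 82.3 and 85.8 in 2iES cells (1.32 ± 0.23). Phlda3 is 1 of 2 members that rose in both and rose more in the E4.5 ICM (difference 0.86 ± 0.25, adjusted p = 0.0213), the other being Psrc1. Apaf1, the scaffold of the apoptosome, stood at 5.04 and 5.14 against 7.88 and 8.37 in the E4.5 ICM (1.00 ± 0.11), and at 2.31 and 4.02 against 19.8 and 21.6 in 2iES cells (2.85 ± 0.26). Pidd1, a p53-induced death domain protein, stood at 3.08 and 3.36 against 6.25 and 5.4 (0.98 ± 0.12), and at 1.71 and 1.56 against 5.85 and 5.52 in 2iES cells (1.80 ± 0.17).

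Among the remaining death genes, Aen rose in both (0.97 ± 0.042 in the E4.5 ICM and 0.86 ± 0.13 in 2iES cells). Ei24, a protein of the endoplasmic reticulum, had a log2 fold change of -0.04 ± 0.064 in the E4.5 ICM and rose in 2iES cells (0.56 ± 0.13, adjusted p = 0.011). The adjusted p of the death genes that rose was at most 6.07e-09 in the E4.5 ICM and at most 0.0173 in 2iES cells.

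**Figure D4:**
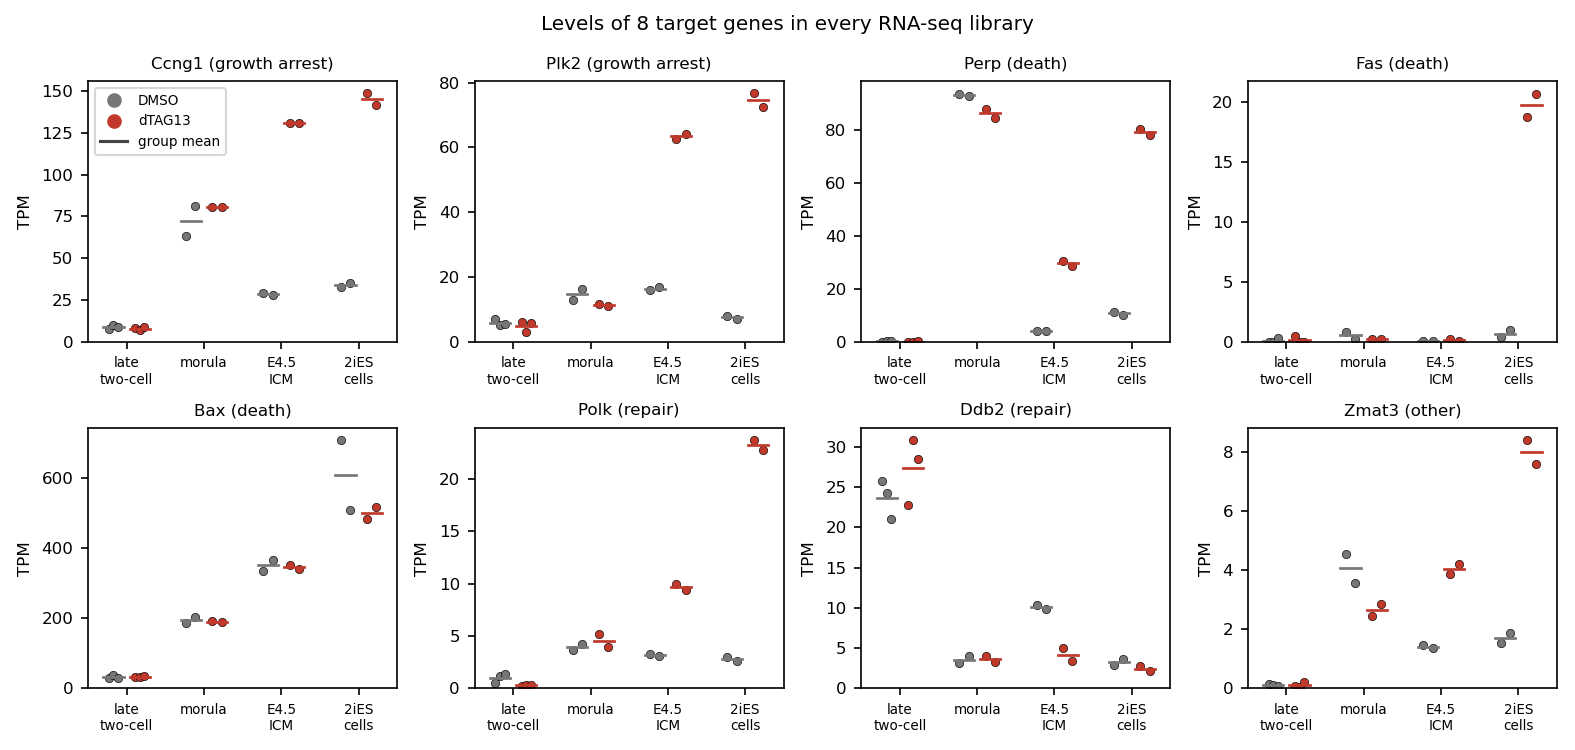
TPM of 8 target genes (2 of growth arrest, 3 of death, 2 of repair and Zmat3) in each library by stage, with points for libraries and lines for group means. Fas is at 18.7 and 20.6 TPM in 2iES cells with dTAG13 and at 1.00 or less in the other libraries, Bax overlaps between treatments at every stage, and Polk and Ddb2, both repair genes, go opposite ways in the E4.5 ICM.

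The repair genes went different ways. Of 5, 1 rose and 2 fell in the E4.5 ICM (all genes 38.4% and 38.5%). In 2iES cells 2 rose and 0 fell (all genes 26.5% and 28.1%), and 0 of the 5 fell by DESeq2. Their median log2 fold change was -0.15 in the E4.5 ICM and 0.42 in 2iES cells, beside 1.88 and 1.87 for the growth arrest genes and 1.20 and 1.83 for the death genes, and the classes were not tested against each other. Polk rose in both, from 3.29 and 3.1 TPM with DMSO to 9.98 and 9.39 with dTAG13 in the E4.5 ICM (1.35 ± 0.093) and from 2.98 and 2.58 to 23.7 and 22.7 in 2iES cells (2.98 ± 0.14). Its direction in late two-cell embryos was the opposite. Ercc5, the endonuclease XPG of nucleotide excision repair, fell from 3.37 and 3.31 TPM with DMSO to 2.35 and 2.46 with dTAG13 in the E4.5 ICM (-0.44 ± 0.13, adjusted p = 0.00202) and rose from 2.83 and 3.12 to 21.7 and 22.0 in 2iES cells (2.61 ± 0.16). This was the largest tested difference of a member between them (-3.06 ± 0.18, adjusted p = 8.09e-06), save for Fas, whose difference did not pass (adjusted p = 0.0895). Ddb2 fell in the E4.5 ICM, from 10.3 and 9.91 TPM to 4.96 and 3.35 (-1.33 ± 0.13, adjusted p = 2.13e-11), and was at 2.87 and 3.67 against 2.74 and 2.14 in 2iES cells (-0.32 ± 0.23, adjusted p = 0.269). Acp2, on the other strand, covers 23.8% of its exonic sequence. Rrm2b and Xpc, a sensor of nucleotide excision repair, passed in neither, with log2 fold changes between -0.15 and 0.42.

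The genes of metabolism and stress were divided. Dcxr, a carbonyl reductase, rose from 21.2 and 22.7 TPM with DMSO to 86.8 and 77.6 with dTAG13 in the E4.5 ICM (1.87 ± 0.073) and from 52.3 and 31.9 to 93.65 and 93.8 in 2iES cells (1.24 ± 0.22). Sesn2, a sestrin that restrains mTORC1, rose from 8.93 and 9.72 TPM with DMSO to 14.2 and 16.2 with dTAG13 in the E4.5 ICM (0.66 ± 0.065) and from 2.7 and 2.49 to 6.95 and 6.41 in 2iES cells (1.44 ± 0.15). Its paralog Sesn1 fell in the E4.5 ICM (-0.37 ± 0.095) and rose in 2iES cells (0.67 ± 0.16). Tigar, a phosphatase that restrains glycolysis, is the 1 member that rose in the E4.5 ICM (0.18 ± 0.041) and did not pass as higher in 2iES cells (-0.33 ± 0.13, adjusted p = 0.0656), and the difference passed (0.49 ± 0.14, adjusted p = 0.0174).

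Of the 3 other targets, Zmat3 rose from 1.46 and 1.37 TPM with DMSO to 3.87 and 4.2 with dTAG13 in the E4.5 ICM (1.34 ± 0.10) and from 1.54 and 1.89 to 8.40 and 7.60 in 2iES cells (2.13 ± 0.17). Fbxw7, the substrate receptor of a ubiquitin ligase for cyclin E and MYC, rose from 4.53 and 4.43 TPM with DMSO to 11.1 and 10.97 with dTAG13 in the E4.5 ICM (1.12 ± 0.075) and from 3.52 and 4.86 to 39.8 and 37.5 in 2iES cells (3.18 ± 0.18). Epha2, an ephrin receptor, fell from 6.61 and 6.75 TPM with DMSO to 3.29 and 3.74 with dTAG13 in the E4.5 ICM (-1.01 ± 0.091) and rose from 5.34 and 5.11 to 6.54 and 6.48 in 2iES cells (0.41 ± 0.14, adjusted p = 0.0382).

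**Figure D5:**
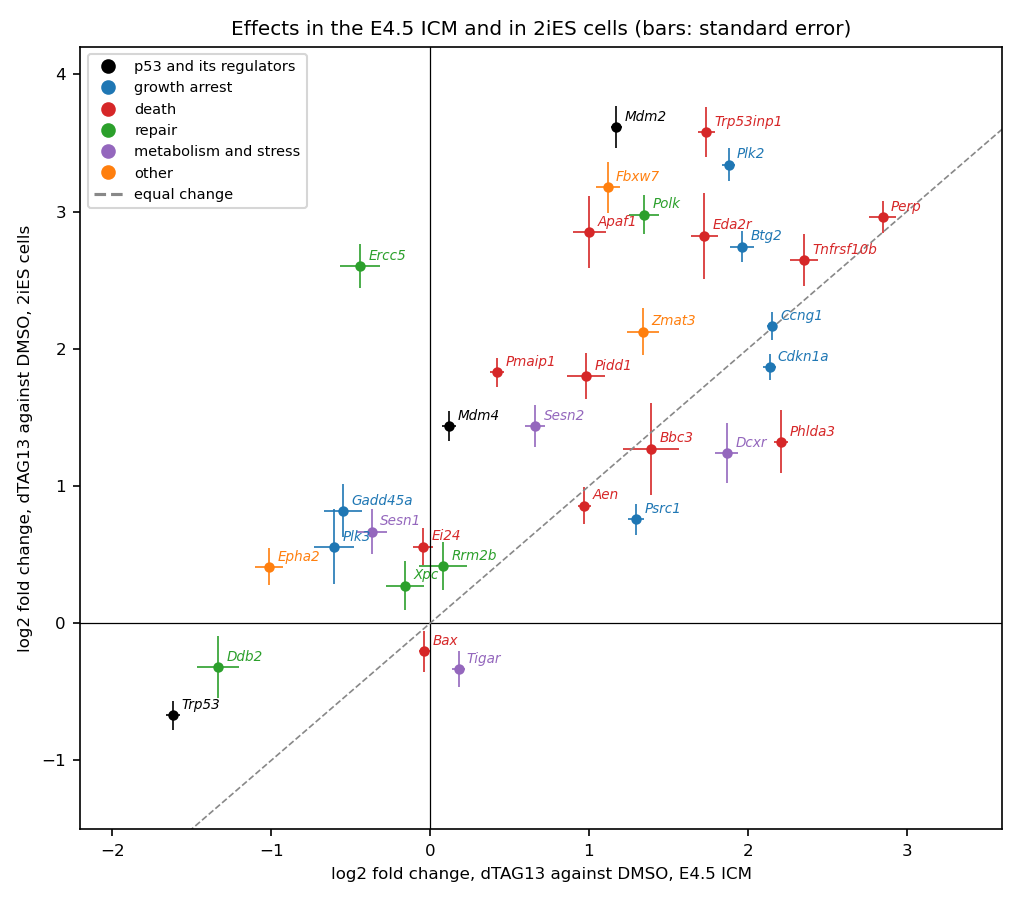
Log2 fold changes of dTAG13 against DMSO in the E4.5 ICM (x axis) and 2iES cells (y axis) for the 34 genes tested in both, colored by role, with bars for the standard error. Trp53 lies in the lower left, most targets in the upper right and above the dashed line of equal change, and Ercc5, Gadd45a, Sesn1 and Epha2 in the upper left.

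Set side by side, 22 members rose in both the E4.5 ICM and 2iES cells, 16 of them with the fold and FPKM requirements at both. Of all genes, 38.4% rose in the E4.5 ICM and 26.5% in 2iES cells, and the share that rose in both was not counted. The 2 comparisons share no libraries. Gadd45a, Ercc5, Sesn1 and Epha2 fell in the E4.5 ICM and rose in 2iES cells, and Trp53 was the 1 member that fell in both. Of the 22, the rise was larger in 2iES cells for 13, among them Mdm2, Plk2, Trp53inp1, Apaf1 and Fbxw7, and larger in the E4.5 ICM for Psrc1 and Phlda3. For the other 7 (Cdkn1a, Ccng1, Bbc3, Perp, Tnfrsf10b, Aen and Dcxr) the difference did not pass, with estimates between -0.31 ± 0.20 and 0.60 ± 0.25. In all, the effects of 24 members differed between the E4.5 ICM and 2iES cells, against 41.9% of all genes, with 3 more positive in the E4.5 ICM and 21 more negative (all genes 20.1% and 21.8%). Between morulae and the E4.5 ICM the effects of 23 of 34 members differed, against 29.1% of all genes, and 20 of these were more positive in the E4.5 ICM. Perp differed most there (-2.97 ± 0.15 for morulae minus the E4.5 ICM, adjusted p = 4.89e-06).

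Other genes of the pathway were read from 2 lists, drawn up with earlier results of these data known. Of 23 upstream genes (kinases, acetylases, ribosomal proteins that bind MDM2, and family members), 0 of 22 tested passed with edgeR in late two-cell embryos. There 3 had an unadjusted p under 0.05, as did 3706 of all 17421 genes. In morulae 0 of 20 passed and 2 had an unadjusted p under 0.05, as did 1854 of all 13667 genes. In the E4.5 ICM 11 of 21 upstream genes rose and 8 fell (all genes 38.4% and 38.5%). In 2iES cells 11 of 22 rose and 2 fell (all genes 26.5% and 28.1%). Ppm1d, the phosphatase WIP1 that switches off p53 and is also its target, rose in both, from 4.37 and 3.35 TPM to 9.29 and 8.17 (1.11 ± 0.11) and from 3.11 and 2.59 to 8.18 and 8.19 (1.64 ± 0.15). Trp73, a paralog of Trp53, rose in both (1.95 ± 0.34 and 2.45 ± 0.27). The damage kinases went different ways in the E4.5 ICM. Atm, Chek1 and Chek2 fell (-0.63 ± 0.083, -0.50 ± 0.054 and -0.62 ± 0.071), Atr rose (0.21 ± 0.069), as it did in 2iES cells (1.76 ± 0.20), and Prkdc did not pass (-0.16 ± 0.091). Kat5, an acetylase of p53, fell in both (-0.95 ± 0.11 and -2.52 ± 0.23).

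Of 21 further targets, 2 of 19 tested fell in late two-cell embryos, Kitl and Gpx1 (all genes 7.24%). In morulae 0 of 19 passed with edgeR, and 1 had an unadjusted p under 0.05, as did 1854 of all 13667 genes. In the E4.5 ICM 11 of 19 further targets rose and 6 fell (all genes 38.4% and 38.5%). In 2iES cells 10 of 19 rose and 1 fell (all genes 26.5% and 28.1%). Their median log2 fold change was 0.48 in the E4.5 ICM and 0.56 in 2iES cells. Rps27l, a ribosomal protein paralog that binds MDM2, stood at 2335 and 2314 TPM against 3601 and 3617 in the E4.5 ICM (0.61 ± 0.022), and at 3782 and 3730 against 7466 and 7908 in 2iES cells (1.14 ± 0.089). Ak1, an adenylate kinase, rose in both (1.17 ± 0.068 and 1.47 ± 0.12). Bid, a BH3-only gene, fell in both, from 9.48 and 9.76 TPM to 3.96 and 3.41 (-1.56 ± 0.11) and from 37.7 and 29.8 to 11.65 and 12.1 (-1.43 ± 0.15).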

How the data were processed

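RNA-seq libraries (SMART-Seq v4 and Nextera XT, which do not keep strand) were trimmed with Trimmomatic, aligned to GRCm38 with STAR and quantified with RSEM by the authors. The authors deposited expected counts, TPM and FPKM per gene, and 55144 of 55385 identifiers were named from GENCODE M21. Total expected counts per library were 9457933 to 27660132, and genes of few counts are accordingly uncertain. Within each stage, rounded expected counts were scaled by TMM and compared by the quasi-likelihood test of edgeR 4.0.16 (R 4.3.3). A gene entered where at least 10 counts were seen in 2 libraries (3 at the late two-cell stage), and p-values were adjusted over all genes tested at 0.05. Controls were compared in 1 fit of the 9 DMSO libraries. Effects between stages were compared as interaction terms in 1 fit of both stages, which share 1 estimate of the spread. For the E4.5 ICM and 2iES cells this biological coefficient of variation was 0.112, beside 0.0237 and 0.159 in the separate fits. The standard error of a difference can therefore be smaller than that of an effect in the more variable stage. The fits were tested on simulated data. Of 2-fold changes put in, 55.9% were recovered at the late two-cell stage, 40.8% in morulae, 94.4% in the E4.5 ICM and 62.5% in 2iES cells. DESeq2 1.42.0, limma 3.58.1 on log2(TPM + 1), other scalings, filters, thresholds and units, the replicate number as a block and left-out libraries were alternatives.

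The members and lists were chosen with earlier results of these data known. Trp53, Mdm2, Mdm4 and Cdkn1a are given at every stage, as is each member past the threshold whose change was 2-fold or more, if its mean FPKM reached 1 in either treatment. The others were named to account for all members, and the genes of the pathway lists were picked after their values were seen. Markers of the two-cell state summed in late two-cell embryos to 141 to 271 TPM with DMSO and 174 to 301 with dTAG13, which overlapped. Those of cumulus cells summed to 17.0 to 18.1 TPM with DMSO and 19.4 to 25.6 with dTAG13. These did not overlap, and 1 of 2 cumulus markers tested passed as higher. Sequences are from RefSeq (GRCm38). The chromatin libraries of the series were not analysed here.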

Additional observations from a re-analysis of the deposited data

Results flagged for a closer look

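Effects of dTAG13 that differed between neighbouring stages by the edgeR interaction term are listed for all members that passed. Values are differences of log2 effects, and the stages also differ in dose or length of treatment.

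For late two-cell embryos minus morulae, Trp53 differed by -1.76 ± 0.31.

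For morulae minus the E4.5 ICM, 23 members differed, with Trp53 at 1.3 ± 0.20, Ddb2 at 1.40 ± 0.32 and Sesn1 at 0.97 ± 0.22 as the positive ones. Negative differences, a larger rise in the E4.5 ICM, were found for Mdm2 (-1.70), for the growth arrest genes Cdkn1a (-2.05), Ccng1 (-2.01), Btg2 (-1.91), Plk2 (-2.23) and Psrc1 (-1.40), and for the death genes Bbc3 (-1.59), Perp (-2.97), Trp53inp1 (-1.57), Eda2r (-2.02), Tnfrsf10b (-2.50), Aen (-1.18), Phlda3 (-2.27), Apaf1 (-0.87) and Pidd1 (-1.55). The same held for Polk (-1.37), Sesn2 (-0.92), Dcxr (-1.91), Zmat3 (-1.97) and Fbxw7 (-1.75).

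For the E4.5 ICM minus 2iES cells, 24 members differed, and Psrc1 (0.52), Phlda3 (0.86) and Tigar (0.49) were more positive in the E4.5 ICM. Trp53 (-0.96) fell more there, and Ddb2 (-1.03) and Plk3 (-1.19) fell there past the threshold and did not pass in 2iES cells. Gadd45a (-1.39), Ercc5 (-3.06), Sesn1 (-1.05) and Epha2 (-1.45) fell in the E4.5 ICM and rose in 2iES cells. The rise was smaller in the E4.5 ICM for Mdm2 (-2.47), Mdm4 (-1.33), Btg2 (-0.80), Plk2 (-1.48), Pmaip1 (-1.43), Trp53inp1 (-1.86), Eda2r (-1.11), Apaf1 (-1.86), Pidd1 (-0.84), Polk (-1.65), Sesn2 (-0.80), Zmat3 (-0.80) and Fbxw7 (-2.08). Ei24 (-0.62) rose in 2iES cells and did not pass in the E4.5 ICM.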

How the results depend on the processing

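Counts of members that rose in the E4.5 ICM (23) and 2iES cells (28) stayed within 1.5 times of these values under every alternative run, and the fall of Trp53 at 3 stages kept its direction and its side of the threshold. The 1 member higher at the late two-cell stage became 2 without the low-count filter, 0 with the fold and FPKM thresholds and 0 to 1 with a library left out, and the 3 lower became 1 with library totals, upper-quartile scaling or limma on log2(TPM + 1) and 1 to 3 with a library left out. The 7 lower in the E4.5 ICM became 3 with the thresholds and 3 with all 18 libraries in 1 fit. The 1 lower in 2iES cells became 3 without the filter, 0 with the thresholds and 1 to 3 with a library left out (2 without DMSO replicate 1 and 3 without DMSO replicate 2). Among controls, the 8 members higher in the E4.5 ICM than in morulae became 4 with upper-quartile scaling and 3 to 9 with a library left out (4 without morula replicate 2 and 3 without either E4.5 ICM library), and the 2 lower in 2iES cells than in the E4.5 ICM became 7 with library totals. The 1 effect that differed between late two-cell embryos and morulae became 3 with DESeq2, 2 with library totals, 3 without the filter and 1 to 2 with a library left out (2 without morula DMSO replicate 1). Of single genes, 5 values changed sign: Cdkn1a in morulae without DMSO replicate 2 (-0.0285, with -0.0285 to 0.253 over the libraries left out), Mdm4 in the E4.5 ICM with limma (-0.25), Trp53 (-0.16) and Mdm4 (-0.28) between 2iES cells and the E4.5 ICM with library totals, and Mdm2 between late two-cell embryos and morulae without morula DMSO replicate 2 (-0.027, with -0.027 to 0.276 over the libraries left out). The causes were not tested.

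Deviations from the group means were correlated between same-numbered libraries at 0.0524, 0.125 and 0.104 at the late two-cell stage. Differently numbered libraries there had -0.102 to -0.0012. For same numbers the correlation was 0.029 in morulae, -0.0456 in the E4.5 ICM and -0.233 in 2iES cells. At these stages the deviations within a group of 2 libraries mirror each other. These values cannot decide whether the numbers pair the libraries. With the replicate block, 2 members were higher at the late two-cell stage, and no other count of members moved by over 1.5 times. Crossing the numbers in 2iES cells, chosen after seeing the data, gave 2 lower members with that block. Groups of 2 or 3 libraries limit the precision, and genes of few counts, such as Polk at the late two-cell stage and Bbc3 in 2iES cells, lost their calls under several alternatives.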

Other observations

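The ratio of Mdm2 to Trp53, both in TPM, is a measured quantity that the comparisons of single genes leave out. With DMSO it was 2.25 to 2.78 in late two-cell embryos, 0.977 and 1.32 in morulae, 0.423 and 0.427 in the E4.5 ICM and 0.39 and 0.573 in 2iES cells. With dTAG13 it was 5.59 to 10.1 in late two-cell embryos, 0.929 and 0.976 in morulae, 2.88 and 3.37 in the E4.5 ICM and 11.0 and 11.2 in 2iES cells. In late two-cell embryos the higher ratio came with a lower Trp53 and no higher Mdm2, while in the E4.5 ICM and 2iES cells Trp53 was lower and Mdm2 higher. The ratio was not tested.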
